A study of Homo sapiens with 8 samples.

Results

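MYC, JUN, SOCS2, CTNNB1 and SNAI1 are genes of growth control and cell identity whose mRNAs have been studied as carriers of N6-methyladenosine (m6A) in liver cancer. Their m6A peaks were taken from HepG2 cells, a line derived from a human hepatocellular carcinoma. A peak was counted for a gene when it shared at least 1 base with the hg19 window of that gene, and 10 of the 30765 listed peaks did so. They lay in 4 of the 5 genes, since no peak touched SOCS2. The 10 peaks formed 4 merged regions of 12221 over the genome, where peaks of different samples that shared a base were joined.

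HepG2 cells were transfected with control siRNA (siControl) or with siRNA against METTL3 (siMettl3) and harvested 48 h later. Each group had 2 replicates, and each list holds the peaks of 1 immunoprecipitated sample. The knockdown was transient and used a single METTL3 target sequence, and the peak lists cannot show how much METTL3 was left in these samples. No source used here says whether replicates were separate cultures, so p-values measure only the spread between these samples, which may be technical.

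The lists held 6888 and 8162 peaks in siControl and 7138 and 8577 in siMettl3, with 1945803 to 2426342 tags (sequenced fragments) inside the peaks of a sample. These lists do not give the library depth. Every list begins at a score of 50 or 50.01, the score being 10 times the −log10 of the peak caller's p-value, so a gene without a listed peak may still carry m6A below that limit. Fold enrichment is the ratio of immunoprecipitated to background signal within a sample, and its median over all peaks was between 4.38 and 4.85. The build was checked against GRCh38.p14. On 14 of 24 chromosomes a listed peak lay past the last GRCh38.p14 gene. The hg19 windows held the 10 peaks by the way these were chosen, and the GRCh38.p14 intervals of the same 5 genes held 0.

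m6A is placed on nuclear mRNA by a complex in which METTL3 is the catalytic subunit and METTL14 its partner. Reader proteins such as the YTHDF family bind the mark and change the decay or the translation of the mRNA. Marks are commonly found in long exons, near stop codons and at the start of the transcript. JUN and MYC are transcription factors of the immediate early response, made from short-lived mRNAs. CTNNB1 encodes β-catenin, which carries the Wnt signal into the nucleus and is often mutated in liver cancer. SNAI1 is a repressor that drives the epithelial to mesenchymal transition, and SOCS2 is an inhibitor of cytokine and growth hormone signaling.

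The 4 genes with a peak differed in where the peak lay. At JUN the peak covered most of the gene, at CTNNB1 it sat on the gene start, and at SNAI1 and MYC it sat near the gene end.

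**Figure D1:**
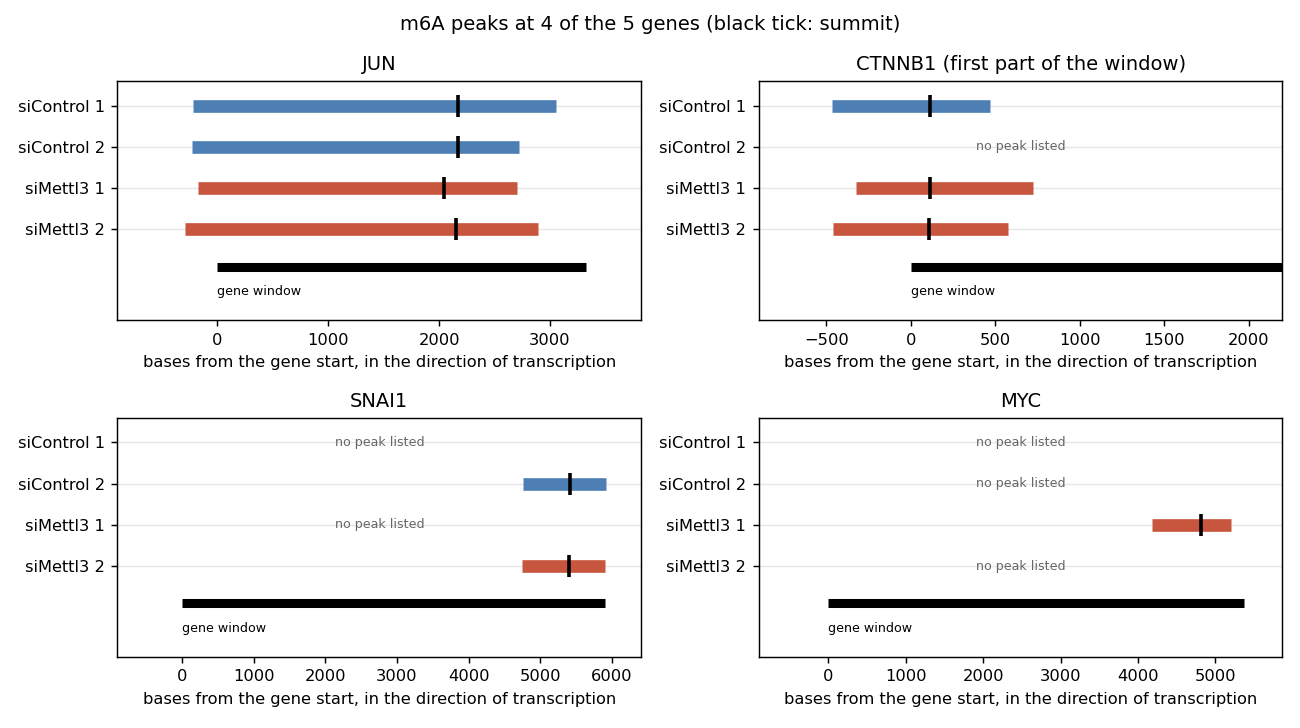
Peaks of JUN, CTNNB1, SNAI1 and MYC in the 4 samples, with the horizontal axis in bases from the gene start in the direction of transcription. Coloured bars are peaks (blue siControl, red siMettl3), black ticks their summits and the black bar the gene window, of which only the first part is drawn for CTNNB1. The peaks lie at the start of CTNNB1 and near the end of SNAI1 and MYC, and those of JUN cover between 81.3% and 91.9% of its window.

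JUN (gene ID 3725, minus strand of chromosome 1, hg19 window chr1:59246463-59249785) encodes the c-Jun subunit of AP-1. It had a peak in all 4 samples, as did 31.7% of all merged regions. The peak was chr1:59246733-59250006 in siControl replicate 1, chr1:59247065-59250015 in siControl replicate 2, chr1:59247086-59249961 in siMettl3 replicate 1 and chr1:59246897-59250080 in siMettl3 replicate 2. It took in between 81.3% and 91.9% of the window. The peak also ran past the gene start in every sample, by 176 to 295 bases. Its summit lay 1154 and 1151 bases from the gene end in siControl and 1276 and 1169 in siMettl3. The 4 summits fell within 125 bases, and 75.6% of the regions with exactly 1 peak in each of the 4 samples had a summit range of that size or less, with a median range of 71 bases.

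CTNNB1 (gene ID 1499, plus strand of chromosome 3, hg19 window chr3:41240942-41281939) had a peak in 3 samples. It was chr3:41240474-41241410 in siControl replicate 1, while siControl replicate 2 listed none. The siMettl3 replicates had chr3:41240619-41241667 and chr3:41240480-41241518. The summits lay 114, 115 and 108 bases after the gene start in the same order. These summits fell within 7 bases of each other. Among regions with 1 peak in each of exactly 3 samples the median range was 51 bases, and 9.17% had a range of 7 or less. The peaks began 323 to 468 bases ahead of the gene start and covered between 1.14% and 1.77% of the window. No other peak was listed along the rest of CTNNB1, which includes the stop codon.

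At JUN and CTNNB1 the peaks span the start of the gene, so the sequence around it is shown. The RefSeq promoter table of GRCh38.p14 matched 2 of the 5 genes, at chr1:58784018-58784297 on the minus strand for JUN and at chr3:41199255-41199534 on the plus strand for CTNNB1. Each run holds 250 bases before the RefSeq start in lower case and the first 30 transcribed bases in capitals, 5′ to 3′ on the strand of the gene.
JUN: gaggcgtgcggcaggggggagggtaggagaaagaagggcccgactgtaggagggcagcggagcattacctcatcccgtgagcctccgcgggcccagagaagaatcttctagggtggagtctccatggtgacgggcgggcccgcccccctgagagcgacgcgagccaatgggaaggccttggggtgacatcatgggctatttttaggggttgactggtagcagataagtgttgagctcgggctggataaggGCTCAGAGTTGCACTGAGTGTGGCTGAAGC
CTNNB1: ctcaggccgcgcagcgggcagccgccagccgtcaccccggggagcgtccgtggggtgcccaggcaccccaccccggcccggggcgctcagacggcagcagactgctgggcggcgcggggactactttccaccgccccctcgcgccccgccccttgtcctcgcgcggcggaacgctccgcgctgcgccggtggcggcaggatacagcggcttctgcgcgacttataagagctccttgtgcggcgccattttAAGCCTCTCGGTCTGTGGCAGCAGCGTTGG
By the hg19 windows the summits lay 108 to 115 bases after the gene start at CTNNB1 and 2046 to 2171 at JUN. They are thus beyond the 30 transcribed bases shown. The RefSeq build also differs from that of the peaks, so peak positions cannot be placed on these letters base by base. The core letters GGAC of the m6A consensus were searched on the strand of the gene in the 300-base windows from which these runs were taken. JUN had 0 matches and CTNNB1 had 1, which began 133 bases before the RefSeq start. In each window 250 of the 300 bases lie before that start. The counts therefore do not describe the transcript at the summits. Of all 35116 promoter windows, 66.3% held the letters at least once.

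SNAI1 (gene ID 6615, plus strand of chromosome 20, hg19 window chr20:48599513-48605420) had a peak in the replicates numbered 2 alone. It was chr20:48604278-48605432 in siControl and chr20:48604260-48605411 in siMettl3, and neither replicate 1 listed one. The summits lay 489 and 511 bases from the gene end, 22 bases apart. The median distance between summits was 24 bases over regions with 1 peak in each of exactly 2 samples. Each peak took up between 19.3% and 19.5% of the window, over its last part.

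MYC (gene ID 4609, plus strand of chromosome 8, hg19 window chr8:128748315-128753680) had 1 peak, chr8:128752494-128753517, in siMettl3 replicate 1. Its summit lay 550 bases from the gene end, and the peak took up 19.1% of the window. The other 3 samples listed no peak at MYC.

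SOCS2 (gene ID 8835, chromosome 12, hg19 window chr12:93963598-93977263) had no peak in any sample. The nearest listed peak lay 791466 and 127482 bases from the window in siControl and 127589 and 93761 bases in siMettl3. The window is 13666 bases long, whereas the SOCS2 gene of GRCh38.p14 in RefSeq spans 56268 bases, so the longest annotated forms reach beyond the window. Over the other genes, the nearest peak outside a window was 37491 bases away, beyond CTNNB1 in siMettl3 replicate 2, so no peak lay just outside a window.

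The peaks also differed in strength, and each is given with its rank in its own sample. JUN joined a very high number of tags to a low fold enrichment. Its peak held 2564 and 2376 tags in siControl and 1884 and 1294 in siMettl3, which were ranks 21, 36, 103 and 91 among the peaks of those samples. On chromosome 1 it ranked between 2 and 7. Its score was 892.08, 1106.91, 1059.15 and 510.07 in the same order, at or above the 96.9 percentile of each sample. The listed false discovery rate (FDR) was 0%, 5.26%, 20.55% and 20.45%. Its fold enrichment, in contrast, was at the 10.4, 7.67, 21.0 and 11.4 percentiles.

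MYC showed the same combination in its single peak. The peak held 895 tags over 1024 bases, or 874 tags per kb, rank 22 of the 7138 peaks of siMettl3 replicate 1. Its fold enrichment was 2.38, at the 1.12 percentile, with a score of 230.07 and an FDR of 36.6%. Low enrichment was usual for peaks so rich in tags. Among the 2% of peaks with the most tags per kb, the median fold enrichment was between 2.64 and 3.05, and between 91.9% and 98.6% of them lay below the median of all peaks in their sample.

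CTNNB1 had the highest fold enrichment of the 4 genes. It was 4.73 in siControl replicate 1, and the siMettl3 replicates had 4.74 and 5.96, at the 57.2, 61.2 and 75.9 percentiles. The peaks held 290, 293 and 253 tags. Their scores were low, at 81.95, 52.85 and 105.77, and the listed FDR was 93.38%, 100% and 55.44%. The peak of siMettl3 replicate 1 was therefore only just inside the list.

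SNAI1 had the fewest tags. Its peak held 176 tags in siControl replicate 2 and 139 in siMettl3 replicate 2, both below the median number of tags per kb. Fold enrichment was 2.99 and 3.41, at the 5.53 and 11.2 percentiles. The scores were 85.21 and 71.81 and the FDR 85.68% and 75.98%.

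**Figure D2:**
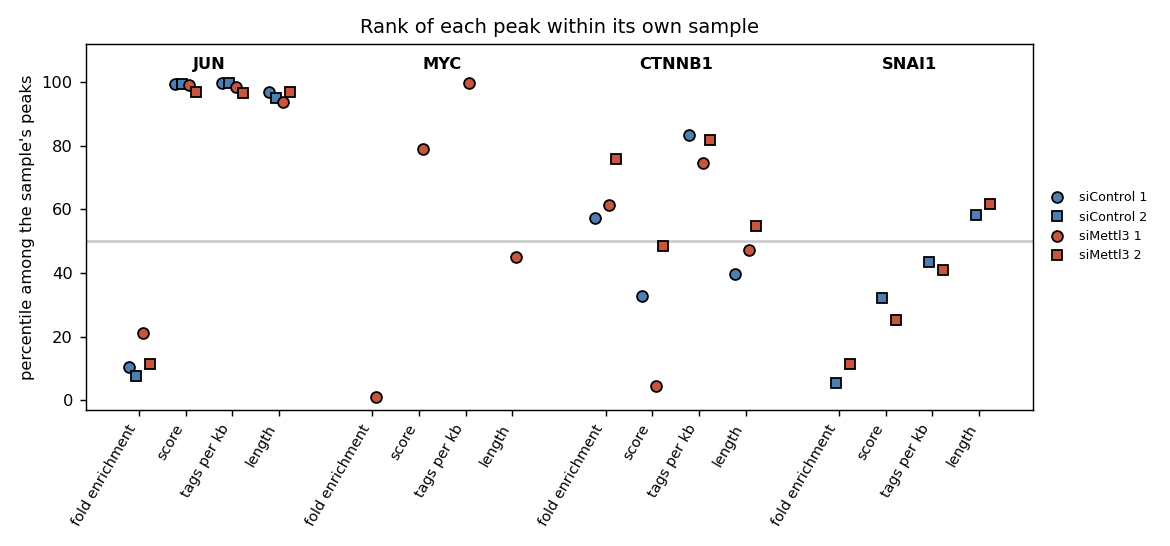
Rank of each of the 10 peaks among all peaks of its own sample, as a percentile on the vertical axis, for fold enrichment, score, tags per kb and length. Points are single samples, blue for siControl and red for siMettl3, with circles for replicate 1 and squares for replicate 2. JUN is at or above the 93.7 percentile for score, tags per kb and length and at or below the 21.0 percentile for fold enrichment, and MYC is at the 1.12 percentile for fold enrichment.

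METTL3 knockdown was then compared with control at JUN, the gene that could be compared over all 4 samples. JUN fold enrichment was 3.18 and 3.13 under siControl, against 3.51 and 3.42 under siMettl3. Both siMettl3 values were above both siControl values, as they were in 20.6% of the 3875 regions with a peak in all 4 samples. The group means were 3.155 ± 0.0354 and 3.465 ± 0.0636 (SD over 2 replicates; p = 0.333 in a two-sided exact permutation test, which is the lowest p that 2 samples against 2 can give). On the log2 scale the difference was 0.14 (siMettl3 minus siControl, SE 0.16, 95% interval −0.24 to 0.51), with an adjusted p of 0.798 in the limma fit over all 3875 regions. That fit called 0 regions (0%), and 372 had an unadjusted p under 0.05, of which 180 (4.65% of all tested) were higher in siMettl3 and 192 lower. This split rested on single libraries. More of such regions were lower without siControl replicate 1 or without siMettl3 replicate 2. More were higher without siControl replicate 2 or without siMettl3 replicate 1. JUN had an unadjusted p of 0.422 with all 4 samples and was not among the 372. The median difference over all these regions was 0.0091, and the JUN difference was at or above that of 69.2% of them.

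Tags at JUN were ordered the other way. The JUN peak held 783 and 805 tags per kb in siControl and 655 and 406 in siMettl3. Divided by the median over the peaks of the same sample, so that samples of unlike depth can be set side by side, these were 4.84 and 4.78 in siControl and 3.68 and 2.93 in siMettl3. Both siMettl3 values were below both siControl values, as in 27.4% of the shared regions. The siMettl3 samples also stood further apart from each other than the siControl samples did. The means of this relative density were 4.81 ± 0.0443 in siControl and 3.30 ± 0.530 in siMettl3 (SD over 2 replicates; two-sided exact permutation p = 0.333, again the lowest possible). On the log2 scale the difference was −0.55, against a median of −0.033 over all shared regions, and 4.21% of them had a difference at or below that of JUN. The combination of higher fold enrichment and lower relative density in both siMettl3 replicates was found in 6.66% of the shared regions. Tags in a peak follow the amount of the transcript as well as its methylation, and their shares in this difference were not tested.

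**Figure D3:**
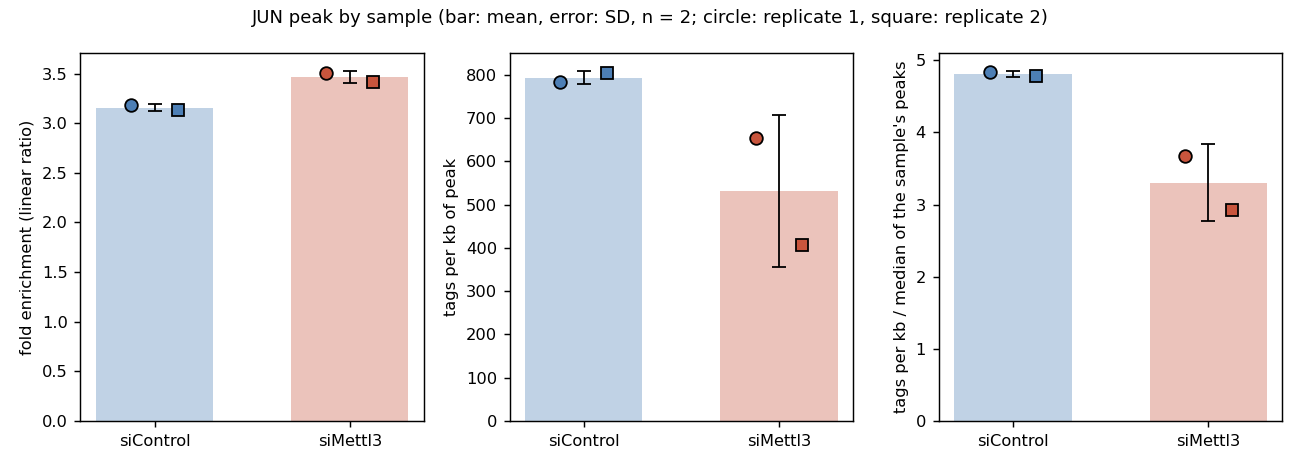
The JUN peak in each sample, with the linear fold enrichment, the tags per kb of peak and the tags per kb divided by the median over the peaks of the same sample on the vertical axes. Bars are group means with SD (n = 2), circles are replicate 1 and squares replicate 2. The siMettl3 values lie above siControl for fold enrichment (3.42 and 3.51 against 3.13 and 3.18) and below it for both measures of tags.

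**Figure D4:**
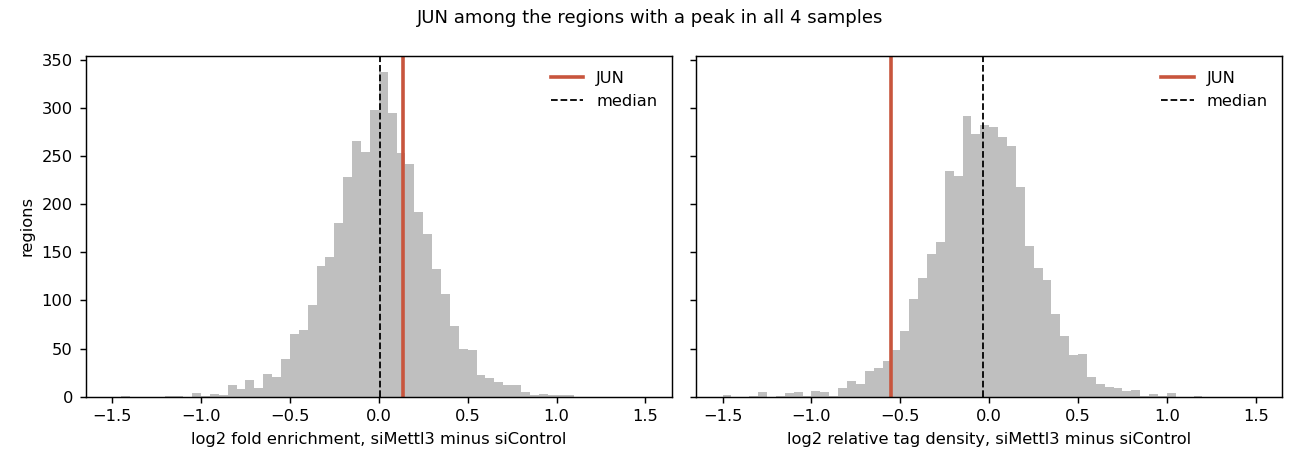
Differences between the group means (siMettl3 minus siControl, log2) for the 3875 regions with a peak in all 4 samples, with the number of regions on the vertical axis and values beyond 1.5 drawn at the edge. The red line is JUN and the dashed line the median. JUN is inside the bulk of regions for fold enrichment at 0.14 and toward the low side for relative tag density at −0.55.

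The other genes could be compared only by whether a peak was listed. The CTNNB1 pattern, a peak in every sample but siControl replicate 2, was found in 209 regions (1.71% of 12221). The SNAI1 pattern, a peak in the replicates numbered 2 alone, was found in 522 regions (4.27%), and it followed the replicate number and not the siRNA. The MYC pattern, a peak in siMettl3 replicate 1 alone, was found in 907 regions (7.42%). The MYC peak was among the strong ones of that set by score. With MYC itself counted, 12 regions (1.32%) had a score as high or higher, and the median score was 67.26. For tags, 61 regions (6.73%) had as many or more. With 2 samples in each group, no pattern of presence can reach an exact permutation p below 0.333.

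Over the 5 genes together, 2 peaks were listed in each siControl replicate and 3 in each siMettl3 replicate. In siControl they were at JUN and CTNNB1 in replicate 1 and at JUN and SNAI1 in replicate 2. In siMettl3 they were at MYC, JUN and CTNNB1 in replicate 1 and at JUN, CTNNB1 and SNAI1 in replicate 2. Different genes thus gave the same count within a group (two-sided exact permutation p = 0.333, the lowest possible). The bases covered by peaks in the 5 windows were 3522 and 3864 in siControl and 4450 and 4618 in siMettl3, a difference of 841 between the means (SD 242 and 119 over 2 replicates; two-sided exact permutation p = 0.333). With peaks of a score of at least 70, the difference was 0.5 peaks and 478 bases. That limit removes the CTNNB1 peak of siMettl3 replicate 1. The groups then overlapped in both measures (two-sided exact permutation p = 0.667 for the bases). How often other sets of 5 gene windows separate the groups over all listed peaks was not tested.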

How the data were processed

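m6A-seq peak lists of 4 immunoprecipitated HepG2 samples (siControl and siMettl3, 2 each) were used. Groups and replicate numbers came from the sample titles. Per the labels, CASAVA 1.8.2, MACS 1.4.2 and hg19 were used, with no role or order given, and the aligner is not given in the sources used here. Peaks were called per sample. The authors deposited for each peak its tags as a whole-number count that is not normalized, its fold enrichment as a linear ratio, its FDR in percent and a score (10 times the −log10 of the p-value, per the file headers).

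The genes, windows and gene lists were chosen with earlier results of these data known. Every peak that shared at least 1 base with a gene window was kept, and all peaks of the 5 genes are reported. Merged regions took the highest fold enrichment of a sample. Log2 fold enrichment was compared with limma (lmFit and eBayes) at an adjusted p of at most 0.05. The adjustment was Benjamini-Hochberg over the 3875 regions called in all 4 samples. The fit was also run on values simulated with normal errors. How often it finds a true change with 2 samples in each group is not given here. Single values were compared with exact permutation tests over 6 relabellings. Tags belong to each sample's own peak, so no count model was fitted, and no counting interval is given. Strands of MYC and SNAI1 are textbook knowledge, and the library strand is not given in the sources used here, so overlapping transcripts cannot be told apart. Alternatives were a score of at least 70, an FDR of at most 50%, other region values, scalings and overlap rules, equal numbers of peaks, each replicate left out and the replicate number as a block. Related pathway genes, hepatocyte markers and motifs at the summits were not analysed here, since they need hg19 gene positions or sequence. Python 3.11.15, numpy 2.4.6, pandas 2.3.3, matplotlib 3.10.9, R 4.3.3 and limma 3.58.1 were used.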

Additional observations from a re-analysis of the deposited data

How the results depend on the processing

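JUN had 1 peak in each sample, so the choice of peak and the score and FDR limits left its log2 fold enrichment difference at 0.14. With a replicate left out it lay between 0.12 and 0.15, where its sign could not turn because the groups do not overlap. Median-centring and quantile normalization, which could have changed the sign, gave 0.13 and 0.14. The limma adjusted p stayed between 0.744 and 0.812 in alternative fits with 2 samples in each group. A replicate block again gave 0.14 (limma adjusted p = 0.792), and the block changed no other call. Over 3875 regions the deviations of same-numbered samples from the mean of their group had a correlation of 0.011. This covers only fold enrichment in shared regions. The replicates numbered 2 had the longer lists in both groups, with 8162 against 6888 and 8577 against 7138 peaks. A peak in the replicates numbered 2 alone was found in 522 regions, and in those numbered 1 alone in 93. What same-numbered samples share is not given in the sources used here. limma called 0 regions under every alternative, with 146 to 497 at an unadjusted p under 0.05. The JUN difference in log2 relative tag density lay between −0.72 and −0.39 with a replicate left out. Its sign could not turn there either, since the groups do not overlap. It was −0.62 without scaling and −0.50 when scaled by tags in shared regions.

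With an FDR of at most 50%, CTNNB1 and SNAI1 had a peak in 0 samples, JUN in 4 and MYC in 1, and the difference in peaks was 0.5 and in covered bases 419.5. All listed FDR values of CTNNB1 and SNAI1 are above that limit. With it the groups overlapped in peaks and in covered bases (two-sided exact permutation p = 0.667 for the bases). Over all listed peaks, the difference in covered bases lay between 670 and 1012 with a replicate left out, and that in peaks stayed at 1. Neither sign could turn because the groups do not overlap, and the difference in peaks was fixed by the equal counts within each group. The summit positions did not depend on the choice of peak, since no gene had more than 1 peak in a sample. Windows from GRCh38.p14, added after seeing the data, held 0 peaks. The unknown library depth and the score limit of 50 bound every statement on a missing peak.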
